A study of Homo sapiens with 6 samples.

Results

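Cadherins, catenins and EPCAM form the adhesion machinery by which epithelial cells hold to one another, and 9 of its genes were described across a comparison of cells with and without forced expression of GPT1. The genes were chosen by name, as CDH1, CDH2, CDH3, CTNNA1, CTNNB1, CTNND1, JUP, EPCAM and FAT1, and all 9 were found by symbol among the 60664 gene identifiers of the deposited table. The 6 libraries came from human colorectal cancer cells of the line HCT8, by label, kept in DMEM with fetal bovine serum. The control group (3 libraries) had received a control plasmid and has the genotype label WT, and the GPT1 group (3 libraries) had received an overexpression plasmid for GPT1 and has that overexpression as its genotype label. No time after transfection, clone or selection step is given in the labels. GPT1 is the alanine aminotransferase of the cytosol, listed as GPT in the table, and the series asked which signalling pathway it regulates in colorectal cancer.

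Classical cadherins are single-pass membrane proteins that bind the same cadherin on a neighbouring cell in the presence of calcium. Their tails bind p120-catenin and either beta-catenin or plakoglobin, and alpha-catenin joins that complex to actin. Epithelia mainly carry E-cadherin, encoded by CDH1, and neural and mesenchymal cells N-cadherin, encoded by CDH2. A fall of the first with a rise of the second is known as the cadherin switch. EPCAM is an adhesion glycoprotein of simple epithelia, abundant in the intestine, and FAT1 is a very large atypical cadherin with a role in actin organisation and growth control.

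The count of GPT was 9, 14 and 3 in the control libraries and 105529, 96886 and 106063 in the GPT1 libraries, as the labels imply. Library totals ran from 21255655 to 32487217 counts, control replicate 3 being the shallowest, and 17638 genes were tested. Not all markers of a colorectal line were present, and the identity of the line is in doubt from these values. Of 17 colorectal epithelial markers, 6 (CDX1, KRT20, GPA33, CEACAM5, FABP1 and TFF3) stayed under 1 CPM (the count scaled to library size with TMM factors) in every library. KRT8 and KRT18, keratins of simple epithelia, and CDX2, an intestinal transcription factor, were present at 529 ± 45.3, 261 ± 25.8 and 41.7 ± 4.47 CPM in the controls (SD, n = 3). KRT19, CLDN4 and VIL1, also colorectal markers, were at 51.1 ± 1.99, 27.3 ± 2.29 and 12.3 ± 0.666 CPM there. VIM, which encodes vimentin, was at 1022 ± 14.5 CPM, the insulin receptor substrate gene IRS4 at 813 ± 76.9 CPM and the neurofilament gene NEFM at 292 ± 41.6 CPM in the same libraries. Of 12 neural and kidney-line markers, 3 (PAX8, NEFH and STMN2) stayed under 1 CPM in every library. So did 5 of 13 fibroblast and mesenchymal markers (COL1A2, DCN, PDGFRA, PDGFRB and THY1).

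Of the 9 genes, 4 were lower in the GPT1 libraries and 5 did not pass the test. The falls were those of CDH1, EPCAM, FAT1 and CDH3, in order of size, with log2 fold changes from -2.01 to -1.04, whereas CDH2 and the 4 catenin genes had values between -0.10 and 0.13. The test was edgeR's quasi-likelihood test over all 17638 genes with Benjamini-Hochberg adjustment at 0.05. It called 25.1% of all tested genes, 14.6% as lower and 10.5% as higher. None of the 9 was called higher, with 0 at an unadjusted p under 0.05 and 0 by DESeq2 or limma voom. For 5 genes the control and GPT1 libraries did not overlap, 4 of them lower in the GPT1 libraries and 1, CTNNB1, higher, where 22.2% and 21.1% of all tested genes did so. The median log2 fold change was -0.10 over the 9 genes and -0.02 over all tested genes. All 9 passed the filter on low counts. Beside the 4 falls, the 17 colorectal epithelial markers summed to 871 to 992 CPM in the controls and 553 to 611 CPM in the GPT1 libraries (sums of markers are on library totals without TMM factors). Their part in the result, and that of the other markers given further below, was not tested.

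**Figure D1:**
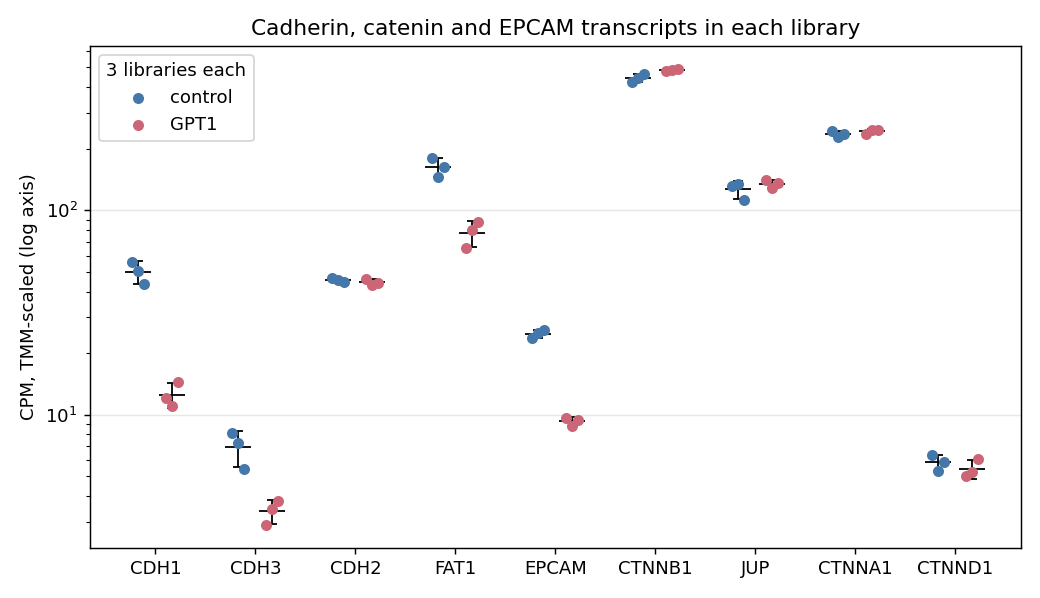
Each point is 1 library, on a log axis of TMM-scaled CPM, with the 3 control and 3 GPT1 libraries of each gene side by side and the mean ± SD in black. CDH1, CDH3, FAT1 and EPCAM separate into a high control and a low GPT1 group, while CDH2, JUP, CTNNA1 and CTNND1 overlap.

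Sequence upstream of the genes is shown for 3 of them. FAT1 fell, CDH2 did not pass the test, and JUP, also not called, was the sole gene here with the E-box CAGGTG in a searched window. That letter sequence, read as CAGGTG or as its reverse complement CACCTG, is the E-box bound by the SNAIL and ZEB repressors, whose genes are described further below. RefSeq windows (GRCh38.p14) of the 250 bases before a transcript start matched 5 of the 9 genes, with 11 windows in all. No window was matched for CDH1, CDH3, CTNND1 and EPCAM. The E-box was found in 1 of the 11 windows, against 17.5% of 35116 windows in the table, and it occurred 2 times in that window. A match is a description of these letters only, and no match says no more than that they are not in the window. The windows are written 5′ to 3′ on the gene's strand, in lower case with the E-box in capitals. They lie on the minus strand at chr4:186726697-186726946 (FAT1), chr18:28177131-28177380 (CDH2) and chr17:41785977-41786226 (JUP).
FAT1: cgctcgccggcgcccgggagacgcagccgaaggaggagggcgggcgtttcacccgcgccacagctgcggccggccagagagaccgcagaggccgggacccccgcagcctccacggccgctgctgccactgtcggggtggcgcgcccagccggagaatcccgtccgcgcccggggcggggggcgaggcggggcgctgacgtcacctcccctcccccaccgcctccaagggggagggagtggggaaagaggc
CDH2: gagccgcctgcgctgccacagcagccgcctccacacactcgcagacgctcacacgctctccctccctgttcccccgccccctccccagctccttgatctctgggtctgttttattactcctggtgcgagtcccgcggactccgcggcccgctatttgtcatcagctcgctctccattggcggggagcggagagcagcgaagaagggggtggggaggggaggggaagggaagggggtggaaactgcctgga
JUP: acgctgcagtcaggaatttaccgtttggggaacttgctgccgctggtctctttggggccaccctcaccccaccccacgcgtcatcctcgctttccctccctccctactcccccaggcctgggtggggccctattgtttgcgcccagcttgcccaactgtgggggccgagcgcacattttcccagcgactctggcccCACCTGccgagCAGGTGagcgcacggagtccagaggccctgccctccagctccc

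The FAT1 window has a GC content of 78.0%, and those of CDH2 and JUP of 66.0% each. CDH2 and JUP have another window each and FAT1 has 1 more, none with the E-box.

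CDH1 (ENSG00000039068, GRCh38 chromosome 16, 68737225 to 68835548, plus strand) encodes E-cadherin, the classical cadherin of epithelial adherens junctions. Its level was 56.1, 50.4 and 43.6 CPM in the control libraries and 12.0, 11.0 and 14.4 CPM in those with GPT1. Every GPT1 library lay below every control library, and control replicate 3 was the lowest control. Behind these values stood 943 to 1836 counts per control library and 335 to 440 per GPT1 library. The log2 fold change was -2.01 ± 0.14 (SE; 95% interval -2.31 to -1.70; adjusted p = 1.6e-05, edgeR), which left 24.9% of the control level. By fold change it ranked 127th from the lowest of the 17638 tested genes. In bulk RNA such as this, fewer cells carrying a transcript and less of it per cell cannot be told apart.

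CDH3, the P-cadherin gene, lies beside CDH1 on the same strand of chromosome 16 (68636189 to 68722616) and encodes a classical cadherin of basal epithelial layers. It was scarce, with 8.12, 7.23 and 5.45 CPM in the controls and 2.89, 3.47 and 3.79 CPM with GPT1. The groups did not overlap, although control replicate 3 was nearer to the GPT1 libraries than the other controls were. The fold change was -1.04 ± 0.18 on the log2 scale (SE; 95% interval -1.44 to -0.65; adjusted p = 0.00378, edgeR). Fewer reads lay behind it than behind CDH1, with 118 to 266 counts per control library and 90 to 116 per GPT1 library.

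CDH2 (chromosome 18, 27950966 to 28177446, minus strand), which encodes N-cadherin, did not pass the test. It stood at 46.8, 45.7 and 44.3 CPM in the controls and at 46.2, 43.3 and 43.9 CPM in the GPT1 libraries. The 2 groups overlapped, and their means of 45.6 ± 1.25 and 44.5 ± 1.53 CPM (SD, n = 3) differed by less than 1 SD of either group. On the log2 scale the difference was -0.04 ± 0.09 (SE), with a 95% interval of -0.23 to 0.16 and an adjusted p of 0.795 by edgeR. Beside the fall of CDH1, a rise of CDH2 beyond 0.16 lay outside that interval.

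The balance of the pair was read within each library as the ratio of the 2 genes' counts, which depends neither on depth nor on scaling. Per kilobase of the longest protein-coding GENCODE 29 transcript, CDH1 and CDH2 were about level in the controls, with CDH1-to-CDH2 ratios of 1.06, 0.978 and 0.872. The ratios were 0.231, 0.225 and 0.290 in the GPT1 libraries, all below the controls. As log2 values, the mean was -0.05 ± 0.14 in the controls and -2.02 ± 0.20 in the GPT1 libraries (SD, n = 3), a 3.92-fold lower ratio. Of the counts per kilobase of CDH1, CDH2 and CDH3 together, CDH1 made up 46.1 ± 1.97% in the controls and 18.8 ± 2.09% in the GPT1 libraries. The share of CDH2 was 47.6 ± 2.70% and 76.1 ± 2.48%, at a level of CDH2 itself that did not pass the test. Summed over the 3 genes, the level was 23.9, 22.3 and 20.2 CPM per kilobase in the controls and 13.7, 12.9 and 13.9 in the GPT1 libraries.

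**Figure D2:**
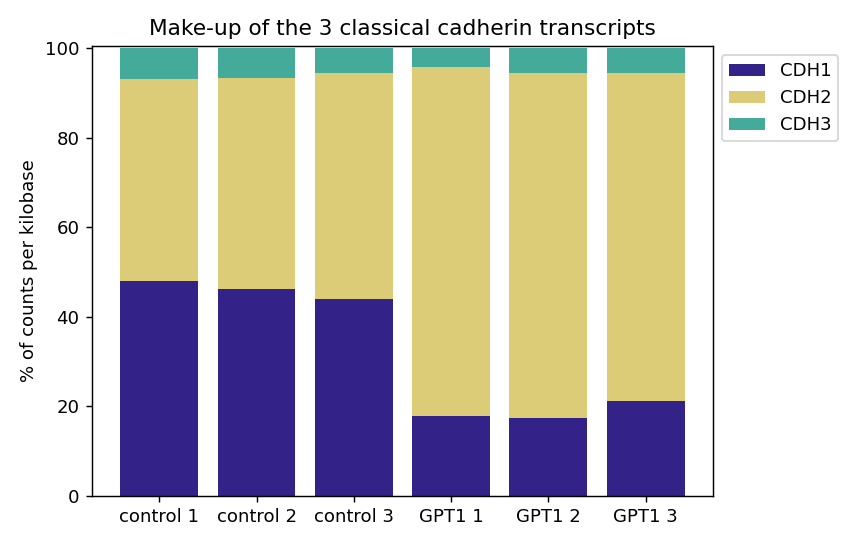
Each bar is 1 library and shows the share of CDH1, CDH2 and CDH3 in their summed counts per kilobase of transcript, in percent. CDH1 takes 48.0%, 46.2% and a little less in the 3 controls and 17.3% to 21.2% in the GPT1 libraries.

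EPCAM (ENSG00000119888, chromosome 2, 47345158 to 47387601, plus strand) encodes the epithelial cell adhesion molecule, which sits on the sides of intestinal cells and is best known as a carcinoma antigen. The controls held 23.6, 25.1 and 25.8 CPM, against 9.62, 8.78 and 9.41 CPM with GPT1. Replicates of either group lay close together and far from the other group. The log2 fold change was -1.42 ± 0.11 (SE; 95% interval -1.67 to -1.17; adjusted p = 4.0e-05, edgeR), or 37.3% of the control level. EPCAM fell less than CDH1, and the count ratio of CDH1 to EPCAM went from 2.38, 2.01 and 1.69 in the controls to 1.25, 1.25 and 1.53 in the GPT1 libraries, without overlap. That difference of ratios was not tested.

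FAT1 (ENSG00000083857, chromosome 4, 186587783 to 186726722, minus strand) encodes an atypical cadherin and has a transcript of 14786 bases, the longest of the 9. It went from 180, 146 and 163 CPM to 65.4, 79.8 and 87.7 CPM. The 3 GPT1 libraries differed among themselves, with GPT1 replicate 1 lowest, and all lay below the lowest control. The log2 fold change was -1.07 ± 0.12 (SE; 95% interval -1.33 to -0.81; adjusted p = 3.2e-04, edgeR). Across 17436 genes, which are no independent replicates, log2 fold changes correlated with the length of the transcript at a Spearman coefficient of -0.34 and with its GC content at 0.31. Within single libraries, deviations from each gene's mean correlated with GC content at -0.52 in control replicate 3 and 0.47 in GPT1 replicate 1. The other libraries lay between -0.13 and 0.27. With length the values were 0.06 to 0.31 in the controls and -0.39 to -0.14 in the GPT1 libraries. After each library was corrected for both trends, the FAT1 value was -0.85 (adjusted p = 1.8e-05, edgeR), and those of CDH1, CDH3 and EPCAM were -1.98, -1.04 and -1.55.

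The genes of the catenins, which join cadherins to actin, stood near their control levels. CTNNB1 (ENSG00000168036, chromosome 3, 41194741 to 41260096, plus strand) encodes beta-catenin, both a junction protein and the transcriptional effector of Wnt signalling. It was the most abundant of the 9 genes per length. Its level was 426, 444 and 465 CPM in the controls and 481, 485 and 492 CPM in the GPT1 libraries. All GPT1 libraries lay above all controls, which held for 21.1% of all tested genes in that direction and for 43.4% in either. The difference was small, with a log2 fold change of 0.13 ± 0.07 (SE; 95% interval -0.04 to 0.29), and did not pass the test (adjusted p = 0.223, edgeR). After the length and GC correction it was 0.29 and passed (adjusted p = 0.00264, edgeR), so the call of CTNNB1 turns on that correction.

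JUP (chromosome 17, 41754604 to 41786931, minus strand) encodes plakoglobin, which takes the place of beta-catenin in cadherin complexes and also belongs to desmosomes. It had 132, 135 and 112 CPM in the controls and 140, 128 and 136 CPM in the GPT1 libraries. The groups overlapped, and control replicate 3 was the low one (log2 fold change 0.09 ± 0.09 SE, 95% interval -0.11 to 0.29, adjusted p = 0.491, edgeR). CTNNA1 (chromosome 5, 138610967 to 138935034, plus strand) encodes alpha-catenin, the actin-binding member. It stood at 244, 227 and 236 CPM in the controls and at 236, 247 and 246 CPM in the GPT1 libraries, again with overlap (0.04 ± 0.07 SE, 95% interval -0.12 to 0.21, adjusted p = 0.680, edgeR).

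CTNND1 (chromosome 11, 57753243 to 57819546, plus strand) encodes p120-catenin, which keeps cadherins at the membrane. Its values were low, at 6.35, 5.30 and 5.87 CPM in the controls and 4.99, 5.24 and 6.08 CPM with GPT1, and the groups overlapped. The log2 fold change was -0.10 ± 0.14 (SE; 95% interval -0.42 to 0.21; adjusted p = 0.616, edgeR). The level itself is uncertain. RefSeq lists a read-through gene, TMX2-CTNND1 (chromosome 11, 57712523 to 57819180), that spans nearly all of CTNND1 (57761802 to 57819540 there), and the sources used here do not say how reads shared by both were counted. In GENCODE 29 the read-through gene shares 321 of 8798 exon bases of CTNND1 (3.65%), and its identifier is not among those counted. TMX2, the upstream partner, had 74.7 ± 7.20 and 90.9 ± 5.61 CPM in the 2 groups (SD, n = 3). Whether shared reads lowered the CTNND1 count was not tested.

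Per kilobase of transcript the order of the levels in the controls was CTNNB1 (94.0 ± 4.07 CPM per kilobase), CTNNA1 (61.4 ± 2.21), JUP (36.1 ± 3.49), EPCAM (14.4 ± 0.666), FAT1 (11.0 ± 1.15), CDH2 (10.5 ± 0.289), CDH1 (10.2 ± 1.28), CDH3 (1.41 ± 0.276) and CTNND1 (0.891 ± 0.0805). FAT1, CDH2 and CDH1 overlapped one another over the libraries and are not ordered by these data. In the GPT1 libraries CTNNB1, CTNNA1 and JUP led again, at 103 ± 1.14, 63.4 ± 1.61 and 38.5 ± 1.67 CPM per kilobase. CDH2 came next at 10.3 ± 0.353, followed by EPCAM (5.38 ± 0.253) and FAT1 (5.25 ± 0.766), which overlapped, and by CDH1 at 2.55 ± 0.356. CTNND1 (0.829 ± 0.0871) and CDH3 (0.687 ± 0.0921) overlapped at the low end. Transcripts of beta-catenin thus outnumbered those of CDH1 per length in all 6 libraries, with CDH1-to-CTNNB1 ratios of 0.127, 0.110 and 0.0908 in the controls and 0.0242, 0.0219 and 0.0283 in the GPT1 libraries. JUP to CTNNB1 stood at 0.419, 0.412 and 0.327 against 0.393, 0.358 and 0.373 per length, the groups overlapping.

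**Figure D3:**
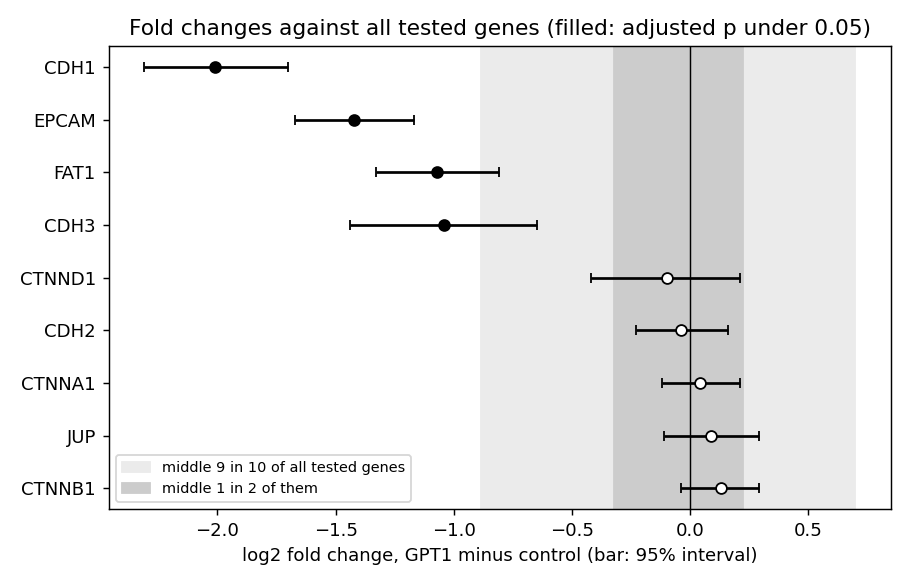
Log2 fold changes (GPT1 minus control) of the 9 genes are drawn with 95% intervals, filled where the adjusted p is under 0.05, over grey bands for the middle ranges of all tested genes. The points of CDH1, EPCAM, FAT1 and CDH3 lie left of the wider band, which holds the middle 9 in 10 of all tested genes, and the other 5 points lie in the darker central band.

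The 4 calls held in each of the 18 alternatives tried. Over these, the log2 fold change ran from -2.12 to -1.90 for CDH1, from -1.55 to -1.36 for EPCAM, from -1.16 to -0.85 for FAT1 and from -1.17 to -0.90 for CDH3. The highest adjusted p was that of CDH3 without control replicate 1 (0.0227, edgeR). With that library left out, 14.2% of all tested genes were called, and without GPT1 replicate 1 or GPT1 replicate 3 the share was 8.80% and 7.98%.

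**Figure D4:**
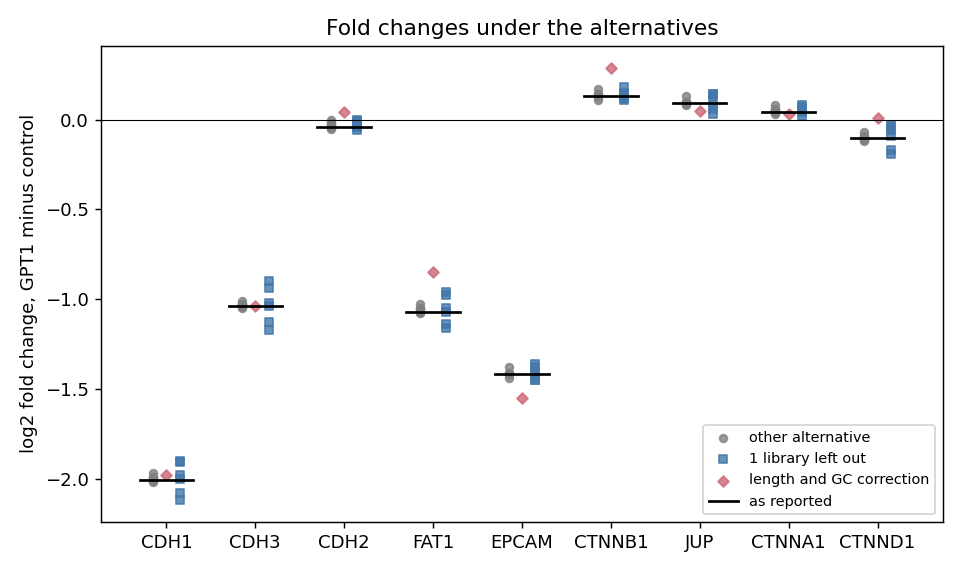
The log2 fold change (GPT1 minus control) of each gene is drawn as reported (black line) and under each alternative: other scalings, filters, tools, thresholds and designs in grey, 1 library left out in blue, and the length and GC correction as a red diamond. The 4 genes that fell reach at most -0.85, and the correction moves FAT1 from -1.07 to -0.85 and CTNNB1 from 0.13 to 0.29.

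Over all tested genes 14.6% were called lower and 10.5% higher, beside which the counts of this and each further list stand. Other cadherins, from a list of 28 with 15 tested, gave 2 genes that fell, near that share, and 0 that rose (median log2 fold change -0.20 against -0.02 over all tested genes). They were CDH23, a stereocilia cadherin that went from 13.0 ± 1.10 to 8.06 ± 0.820 CPM (adjusted p = 0.00646, edgeR), and CLSTN2, a calsyntenin at 4.12 ± 0.442 and 2.37 ± 0.583 CPM (0.0187). CLSTN2 did not pass without GPT1 replicate 3 (0.0736), which left 1 gene in the count, and 4 passed without control replicate 3. None was higher by DESeq2, limma voom or an unadjusted p under 0.05 either. CELSR1 and CELSR2, seven-pass cadherins of planar cell polarity, had values of -0.22 ± 0.09 and -0.28 ± 0.10 (SE; adjusted p = 0.0882 and 0.0636, edgeR), and both passed without control replicate 3 (0.0340 and 0.0295). CDH4, CDH5, CDH6 and CDH11, further classical cadherin genes, did not reach the filter on low counts. CDH17, the intestinal liver-intestine cadherin among the colorectal markers, went from 3.97 ± 0.192 to 0.944 ± 0.209 CPM (adjusted p = 1.3e-04, edgeR) and was looked up after its value was seen.

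The FAT and Dachsous group held relatives of FAT1 and also FJX1 and LIX1L, which are not cadherin genes. Of its 6 tested genes 0 passed edgeR's test, with 1 at an unadjusted p under 0.05 and 0 by DESeq2 or limma voom. FAT3 had the smallest adjusted p (-0.34 ± 0.14 SE, 0.0875) and DCHS1, which encodes a ligand of FAT cadherins, stood at 13.4 ± 2.29 and 11.2 ± 0.617 CPM. The group's median was -0.11, ran from -0.30 to 0.11 when 1 library was left out (the highest without control replicate 1), and was 0.07 after the length and GC correction. Without control replicate 3 or GPT1 replicate 1, 2 and 1 of the genes passed as lower. FJX1 and LIX1L had values of 0.19 ± 0.11 and 0.14 ± 0.10, both entering the median, while FAT4, DCHS1 and DCHS2 had -0.01, -0.26 and -0.20.

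Among 8 tested protocadherins outside the gene clusters, 3 fell and 1 rose (median -0.32, moving to -0.05 once corrected for length and GC). PCDH1, a protocadherin of epithelia, went from 11.8 ± 1.28 to 5.30 ± 0.825 CPM (adjusted p = 8.7e-04, edgeR) and kept its call with each library left out. The calls of PCDH10 (-0.31 ± 0.09 SE), PCDH18 (-0.66 ± 0.15) and PCDH7 (0.34 ± 0.10) were lost without GPT1 replicate 1 or GPT1 replicate 3 (adjusted p up to 0.131, 0.0619 and 0.143, edgeR), which left 1 lower and 0 higher. PCDH10 and PCDH7 were lost without control replicate 1 and GPT1 replicate 2 too, and PCDH7 also without control replicate 2. After the length and GC correction PCDH10 stood at -0.02 and PCDH18 at -0.38, neither called.

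Other catenins and plakophilins, the armadillo proteins of junctions and desmosomes, fell in 4 of 6 tested genes (median -0.50). PKP3, the plakophilin of simple and stratified epithelia, went from 7.65 ± 1.57 to 3.36 ± 0.428 CPM, and PKP2 from 29.4 ± 3.86 to 19.2 ± 1.14 CPM (adjusted p = 0.00180 and 0.00774, edgeR). PKP4 (-0.38 ± 0.09 SE) and the alpha-catenin relative CTNNAL1 (-0.67 ± 0.15) were no longer called without GPT1 replicate 1 or GPT1 replicate 3, which left 2 genes (adjusted p up to 0.0770 and 0.0582, edgeR). PKP4 was lost without control replicate 1 as well, and 1 gene of the list passed as higher without control replicate 2. CTNNBIP1 and ARVCF did not pass.

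The desmosomal list of cadherins and plakins had 3 of 7 tested genes lower and 1 higher (median -0.34, moving to -0.14 once corrected). By DESeq2 the list had 3 lower and 0 higher. PPL and EVPL, the plakins periplakin and envoplakin, fell by amounts near that of CDH1, from 12.9 ± 1.05 to 3.61 ± 0.474 CPM and from 3.10 ± 0.644 to 0.942 ± 0.282 CPM (adjusted p = 3.6e-05 and 0.00167, edgeR). DSP, the main desmosomal plakin, went from a mean of 193 to 152 CPM (-0.34 ± 0.11 SE) and was not called with any library left out other than control replicate 2 (adjusted p up to 0.186, edgeR). DSC1, at 0.698 ± 0.247 and 1.30 ± 0.0978 CPM, kept its call as higher solely without control replicate 3 (up to 0.122 otherwise). Of the desmosomal cadherins, DSG2, DSC2 and DSC3 had values of -0.36, -0.04 and -0.26 and did not pass.

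Junction linkers and nectins fell in 3 of 12 tested genes, and NECTIN4 rose, against 14.6% and 10.5% of all tested genes (median -0.21). NECTIN4, an immunoglobulin-type adhesion receptor, went from 4.88 ± 0.670 to 11.7 ± 0.483 CPM (log2 fold change 1.26 ± 0.14 SE, adjusted p = 3.2e-04, edgeR), a call kept with each library left out. AFDN (-0.33 ± 0.09), which links nectins to actin, LIMA1 (-0.53 ± 0.12) and SHROOM3 (-0.36 ± 0.12) were not called without GPT1 replicate 1 or GPT1 replicate 3 (adjusted p up to 0.0994, 0.0628 and 0.173, edgeR), so that 0 genes were lower then. AFDN was lost without control replicate 1 too, and SHROOM3 without control replicate 1 or 3 or without GPT1 replicate 2. Without control replicate 1 the number was 1, and after the length and GC correction 5. VCL, which encodes vinculin, and the alpha-actinin genes ACTN1 and ACTN4 had values of -0.11, -0.05 and 0.06, none of them called.

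Among 12 genes of cadherin turnover, 4 fell and 2 rose (median -0.05). DESeq2 called 3 lower and 2 higher. ADAM10, the protease that sheds the outer part of E- and N-cadherin, had 39.9 ± 10.3 CPM in the controls (-0.67 ± 0.17 SE, adjusted p = 0.0197, edgeR). After the length and GC correction its value was -0.22. PTPRK (-0.56 ± 0.12), a receptor phosphatase at cell contacts, NUMB (-0.38) and PTPRF (-0.28) fell as well, and the gamma-secretase genes PSENEN (0.80 ± 0.19) and APH1A (0.43 ± 0.11) rose. Without GPT1 replicate 1, 0 of these 6 passed. The adjusted p of ADAM10, PTPRK, PSENEN and APH1A was at most 0.0899 (edgeR) with any 1 library left out. Without GPT1 replicate 3, 1 passed, as lower, and without control replicate 1, 2 were lower and 1 higher. NUMB and PTPRF were named after their values were seen.

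In the list of the beta-catenin destruction complex and nuclear partners, 3 of 14 fell and 1 rose, against 14.6% and 10.5% of all tested genes (median -0.10). DESeq2 called 2 lower and 1 higher. AXIN2, a scaffold and feedback target of Wnt signalling, went from 23.4 ± 3.36 to 12.1 ± 1.17 CPM (adjusted p = 0.00144, edgeR), with each library left out too. APC (-0.86 ± 0.25 SE), the scaffold commonly mutated in colorectal cancer, varied among the controls, 28.8 ± 11.5 CPM, and stood at -0.44 after the length and GC correction. APC, TCF7L1 (-0.44 ± 0.13) and the kinase gene GSK3A (0.46 ± 0.10) did not pass without GPT1 replicate 1 or GPT1 replicate 3 (adjusted p up to 0.116, 0.0890 and 0.0646, edgeR), which left 1 lower and 0 higher. TCF7L1 was lost without control replicate 1, control replicate 2 and GPT1 replicate 2 as well.

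Transcription factors known to act on CDH1 fell in 7 of 18 tested genes, and 0 rose (median -0.41). DESeq2 called 6 lower, and 0 were higher by DESeq2, limma voom or an unadjusted p under 0.05. The 7 took in both kinds of regulator. Of the repressors, SNAI2 went from 50.0 ± 1.04 to 34.3 ± 2.91 CPM (adjusted p = 0.00520, edgeR). ZEB1, named after its values were seen, went from 20.2, 16.3 and 32.7 CPM to 7.72, 11.3 and 10.4 CPM (-1.23 ± 0.24 SE, adjusted p = 0.00656), control replicate 3 being the high one. The ZEB1 value was -0.85 after the length and GC correction (adjusted p = 0.00072, edgeR) and ran from -1.43 to -0.88 with 1 library left out. Of the activators of epithelial genes, GRHL2 went from 2.38 ± 0.559 to 0.565 ± 0.183 CPM and HNF4A from 2.97 ± 0.322 to 1.02 ± 0.166 CPM (adjusted p = 0.00110 and 9.1e-04, edgeR). These 4 calls held with each library left out, while OVOL1 (-1.34) and FOXA1 (-0.36), also named later, lost theirs (up to 0.133 and 0.156) when control replicate 1 or 2, or GPT1 replicate 1 or 3, was left out. FOXA1 lost it without GPT1 replicate 2 too. SNAI1, ZEB2 and TWIST1 did not pass, at 0.24, -0.32 and 0.16.

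Genes whose proteins associate with EPCAM or regulate it fell in 6 of 10, with 0 higher by edgeR, DESeq2, limma voom or an unadjusted p under 0.05 (median -0.69). ST14, the membrane protease matriptase, went from 41.6 ± 4.56 to 11.6 ± 1.10 CPM, its inhibitor gene SPINT1 from 16.4 ± 2.56 to 4.41 ± 0.775 CPM, and the claudin gene CLDN7 from 10.9 ± 1.23 to 3.23 ± 0.331 CPM. The adjusted p of these 3 was 1.6e-05, 8.4e-05 and 5.4e-05 (edgeR), and they kept their calls with each library left out. TSPAN8 (-0.97) and ADAM17 (-0.40), named after their values were seen, lost theirs (up to 0.0774 and 0.119) when control replicate 1, or either of GPT1 replicate 1 and GPT1 replicate 3, was left out, which left 4 genes. SPINT2, a close relative of SPINT1, stood at 0.03.

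**Figure D5:**
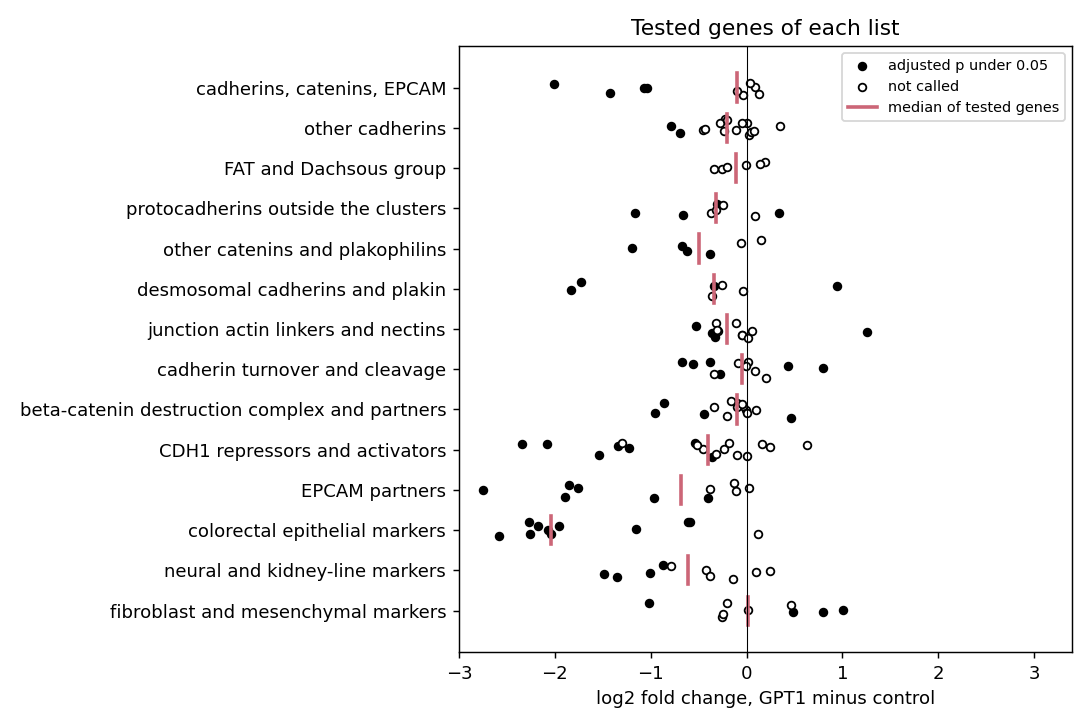
Each point is a tested gene of a list, at its log2 fold change (GPT1 minus control), filled where the adjusted p is under 0.05, with the list's median as a red bar. The colorectal epithelial markers (median -2.04) and the EPCAM partners (-0.69) have the lowest medians of the lists drawn.

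Markers of cell type moved with the same libraries. Of 11 tested colorectal epithelial markers 10 fell, among them CLDN4, CLDN3, KRT19 and VIL1 (-2.27, -2.58, -2.17 and -1.96), and CDX2 did not pass (0.12, adjusted p = 0.448, edgeR). Neural and kidney-line markers fell in 4 of 10 (NEFM, NEFL, IRS4 and MAP2), with a median of -0.61 and sums of 1277 to 1537 and 676 to 755 CPM. Of 9 fibroblast and mesenchymal markers, FN1 fell (-1.02) and ACTA2, LUM and SPARC rose (0.49, 0.80 and 1.01), though LUM and SPARC (adjusted p up to 0.138 and 0.0626, edgeR) missed the threshold when control replicate 1, or either of GPT1 replicate 1 and GPT1 replicate 3, was left out, and LUM also without control replicate 2. The list had a median of 0.02 and sums of 1244 to 1287 and 1182 to 1211 CPM, and VIM stood at 1022 ± 14.5 and 1039 ± 4.71 CPM. Leukocyte and endothelial markers were near 0, with CD3E and EMCN at 0 in all libraries and sums of at most 2.35 and 0.955 CPM, and none of them was called. Of 4 hepatocyte markers 2 were tested and SERPINA1 fell, from 2.88 ± 0.440 to 0.587 ± 0.168 CPM.

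Likeness of pattern was measured as the root mean square difference of log2 CPM, centred on each gene's mean, over the 6 libraries. Among 11535 genes with a mean of at least 5 CPM, those most like CDH1 were CEMIP (0.060), PLPP2 (0.087), SPINT1 (0.092), then PPL, and after it VIL1 (0.104). CEMIP, which encodes a hyaluronan-binding protein, went from 19.5 to 4.68 CPM on average. Most like CDH2, with no difference between the groups to speak of, were TNFAIP1 (0.019), KARS1 (0.020), PSMD7 (0.022), DNAJB5 (0.022) and NAXD (0.023).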

How the data were processed

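mRNA of 6 samples was sequenced from Trizol-extracted RNA with Illumina protocols, per the labels' protocols. The authors deposited raw read counts per Ensembl gene. Reads were aligned with HISAT2 2.0 to GRCh38, per the submitters' processing notes, and the counting tool, annotation release and strand setting were all not given in the sources used here. Antisense genes overlap exons of CDH1, CDH2, CDH3 and CTNNA1, with at most 32 counts in any library, and whether reads of both strands were kept apart is not known. A name table matched 60463 of 60664 identifiers. Lengths, GC content and coordinates are from GENCODE 29.

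Counts were tested in R 4.3.3 with edgeR 4.0.16 (filterByExpr, TMM, glmQLFit and glmQLFTest, two-sided), adjusted over 17638 genes. Standard errors were derived from the F statistic. The fit was tested on simulated data. Replicate pairs differed by a chi-square of 9.98 to 30.8 per degree of freedom. All 6 libraries were treated as samples, which these values cannot show them to be. No source says they are separate cultures, so the p-values cover the spread between these samples alone, and that spread may be technical.

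The 9 genes, 16 further lists (189 genes) and the rules were chosen with earlier results of these data known. Named are the 9 genes, GPT, the 4 genes of smallest adjusted p per list, the 4 most abundant of each marker list and the 5 genes most like CDH1 and CDH2. Genes said to be named later, and values given for other list members, fall outside this rule, and some genes it took are not reported here. Alternatives were other scalings, filters, DESeq2 1.42.0, limma 3.58.1 voom, thresholds, a replicate block, each library left out, and a correction for length and GC content (mgcv 1.9.3). For the lists, the last 3 were added after the data were seen.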

Additional observations from a re-analysis of the deposited data

How the results depend on the processing

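Of 4430 changed genes (2572 lower, 1858 higher), 1172 (681 and 491) were changed at an adjusted p of 0.01 and 1424 (897 and 527) against a 1.2-fold change. With 1 library left out, the number ran from 1443 to 4907, with 830 to 2937 lower and 613 to 1970 higher, the lowest without GPT1 replicate 3, followed by 1586 without GPT1 replicate 1 and 2565 without control replicate 1. The length and GC correction gave 6073, and 1 other cadherin, 2 desmosomal and 2 destruction complex genes were then higher. The 4 falls among the 9 genes held in all 18 alternatives, and CTNNB1 was called in 1 (0.29, the correction). Values near 0 changed sign: CDH2 was 0.00 with upper quartile scaling, 0.04 after the correction and 0.00 without GPT1 replicate 2, CTNND1 was 0.01 after the correction, and VIM was -0.14 there. The median of the FAT and Dachsous group was 0.07 after the correction and from -0.30 to 0.11 with 1 library left out. That of the fibroblast and mesenchymal markers was -0.10 after it and from -0.06 to 0.19 with 1 library left out. Same-numbered control and GPT1 libraries deviated with correlations of 0.14, -0.28 and -0.08, which gave no sign of pairing by number. With deviations centred within each group of 3, these values cannot settle whether same-numbered samples were handled together. With the replicate block 3886 genes were changed, and the 4 falls were called again. Not called with it were PCDH7, PCDH10, DSP, SHROOM3, TCF7L1, FOXA1 and PTPRF (adjusted p up to 0.0946, edgeR). Counts per library limit CDH3 and CTNND1 most.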
